A study of Onthophagus taurus with 60 samples.

Results

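A set of 484 transcripts had their highest mean level in the dorsal prothorax, the dorso-central epidermis of the first thoracic segment, in male prepupae of the horned dung beetle Onthophagus taurus. They were chosen among the 21668 predicted protein-coding transcripts of a table of RNA-seq counts, of which they made up 2.23%. Counts were divided by the total of each column and scaled to CPM, counts per mega-count of the column, and a mean was taken over all columns of each of 8 tissues. A transcript was a member when its dorsal prothorax mean was at least 5 CPM and at least 1.5 times the mean of each of the other 7 tissues. The members were thus selected on their measured dorsal prothorax levels, so every difference between the dorsal prothorax and another tissue is given as a description, without a test.

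The study sampled 8 regions of the epidermis of male prepupae to set thoracic horns beside wings and other parts of the body wall. The regions were the dorsal prothorax, the thoracic horn, the anterior, posterior and carinated margins of the same segment, the wing of the second thoracic segment (T2 wing), the abdominal support structures, bilateral outgrowths of the abdominal body wall, and finally the dorsal head. No treatment, genotype or strain was given by the labels for any group, and age was given only as the prepupal stage at the end of larval life. Each tissue had 6 biological replicates. For the wing and carinated margin each individual gave a library from either side, and its 2 libraries were summed, which left 48 libraries.

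In a beetle prepupa the epidermis has come away from the larval cuticle and grows and folds into the form of the pupa, whose cuticle it then secretes. The dorsal plate of the prothorax, the pronotum, bears no wings in living insects, and in other insects, among them the beetle Tribolium and the fly Drosophila, the Hox gene Sex combs reduced holds back wing formation in that segment. In this series the dorsal centre of the prothorax was taken, with the dorsal head, as a tissue with no reported tie to wings. The names available here were locus numbers without product descriptions, so no role is given to any member, and lists of genes by function or by cell type could not be formed. The purity of the dorsal prothorax libraries was therefore not checked against markers.

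Dorsal prothorax libraries held 13.67 to 16.68 mega-counts (M) each. Single columns of the other tissues held 12.09 to 21.41 M outside the head and 74.83 to 87.27 M in the head. CPM is not divided by transcript length, so an order of transcripts by CPM is one of shares of counts, not of RNA molecules. In bulk tissue, fewer cells of a type that makes a transcript and less of its RNA per cell cannot be told apart. Libraries of the 7 tissues other than the head shared animals by number, from animal 1 to animal 6, while head numbers did not match them, so head libraries are called library 1 to 6.

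The dorsal prothorax means of the members ran from 5.02 to 1610 CPM, with a median of 22.7 CPM. Of the 484 members, 78 averaged at least 100 CPM in the dorsal prothorax and 123 averaged 5 to 10 CPM. The ratio of the dorsal prothorax mean to the next highest tissue mean had a median of 1.74 and reached 7.83. It was at least 2 for 136 members and at least 3 for 39, while 120 lay between 1.5 and 1.6.

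Just inside the ratio threshold, XM_023046282.1 averaged 6.339 CPM in the dorsal prothorax against 4.223 CPM in the anterior margin, a ratio of 1.501. Just outside it, XM_023043901.1 averaged 59.33 CPM in the dorsal prothorax against 39.58 CPM in the anterior margin, a ratio of 1.499. Near the level threshold, XM_023049753.1 was inside at 5.021 CPM and XM_023060909.1 outside at 4.99 CPM. The number of members depends on where these thresholds were set: 136 transcripts met the rule at a ratio of 2 and 361 at a level of 10 CPM.

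The tissue next below the dorsal prothorax was, by total-count CPM, most often a margin of the same segment. It was the posterior margin for 145 members, the anterior margin for 127, the support structures for 59, the carinated margin and the T2 wing for 54 each, the thoracic horn for 35 and the dorsal head for 10. With TMM (trimmed mean of M values) scaling in place of total counts, the next tissue was instead the horn for 209 members, against 88 for the posterior, 62 for the carinated and 41 for the anterior margin. The lowest tissue was the dorsal head for 261 members and the thoracic horn for 123. A mean of at most 10% of the dorsal prothorax mean was found in the head for 127 members, in the horn for 55, in the support structures for 47, in the wing for 40, in the anterior margin for 24, and in the posterior and carinated margins for 13 each. The order dorsal prothorax, carinated margin, wing held for 329 members, and 45 members had every prothoracic tissue above the wing, the support structures and the head. The dorsal prothorax comes first by the rule. No matching shares over all coding transcripts were taken for the counts in this paragraph, so they are a description only.

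The groups overlapped for most members. For 54 of the 484 members (11.2%) all 6 dorsal prothorax libraries lay above all 42 other libraries, against 1.05% of the 6922 coding transcripts with at least 5 CPM in the dorsal prothorax. Within animals, the dorsal prothorax was the highest of the 7 paired tissues in all 6 animals for 234 members (48.3%), against 7.92% of the 6922. It was the highest in 5 animals for 95 members, in 4 for 74, in 3 for 48, in 2 for 23 and in 1 for 10. Both shares follow in part from the choice of members, and nothing is read from them beyond the split itself. With each replicate number left out in turn, 261 members passed every time.

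**Figure D1:**
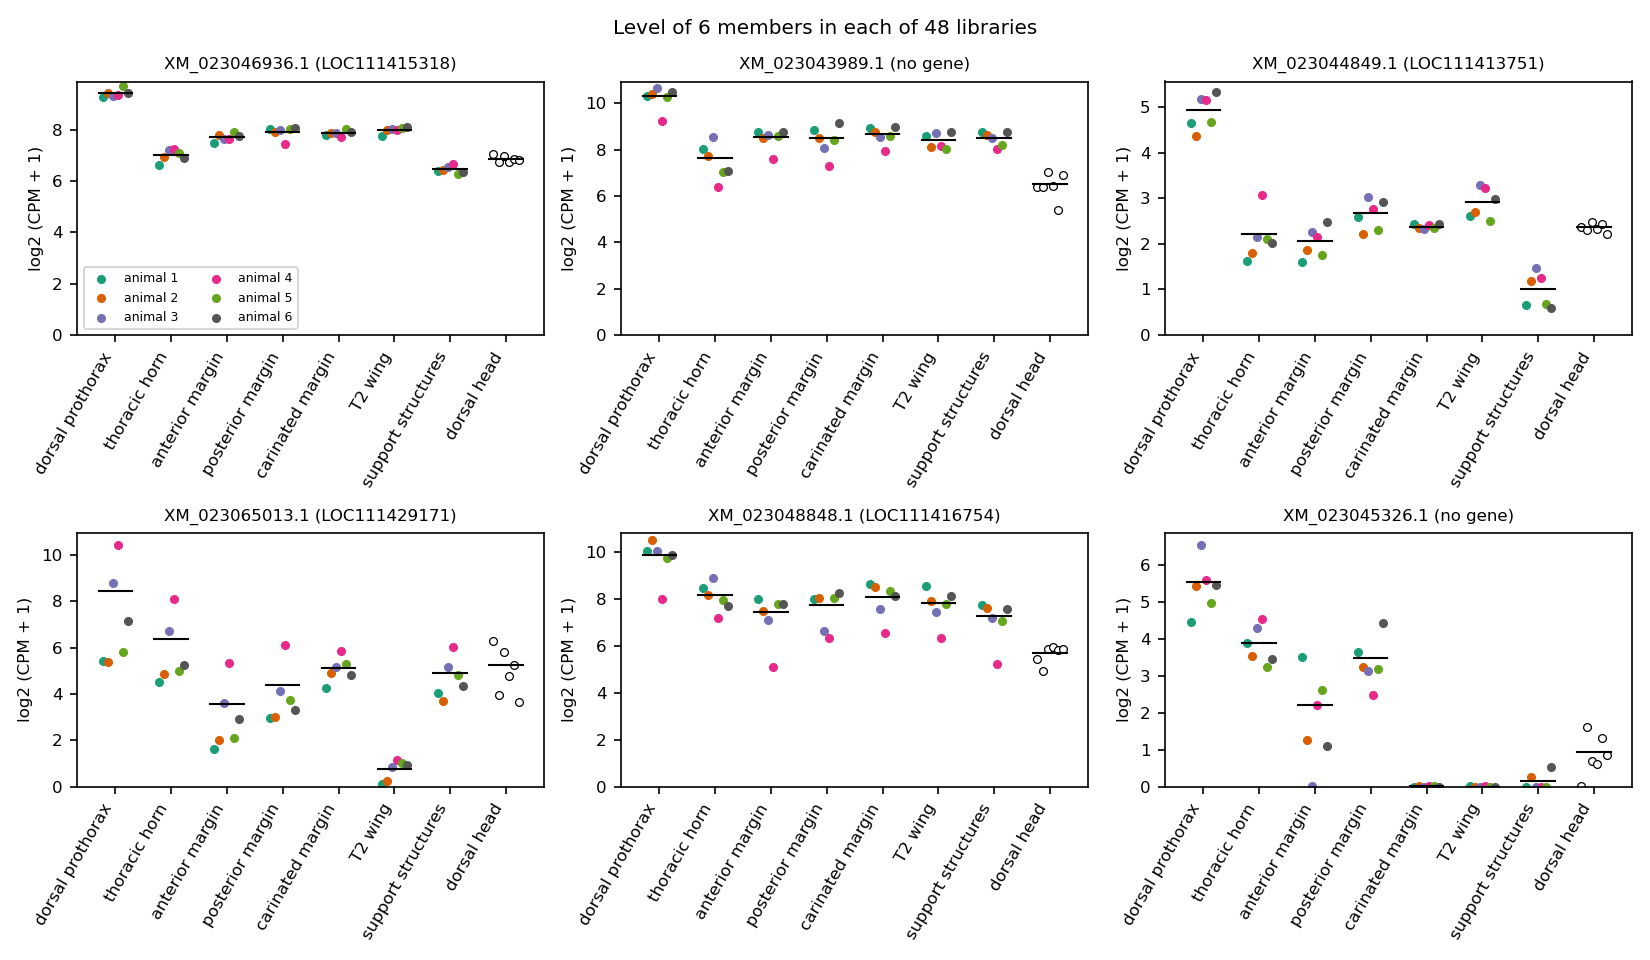
Level of 6 members in each of the 48 libraries, as log2 (CPM + 1), with tissues along the horizontal axis. Points are libraries coloured by animal, open points are head libraries, which are not paired with the others, and bars are means taken in CPM. XM_023046936.1 lies at 626 to 839 CPM in all 6 dorsal prothorax libraries, above every other library, while XM_023065013.1 spans 40.8 to 1380 CPM there and overlaps other tissues.

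XM_023046936.1, a transcript of LOC111415318, was the steadiest of the 10 members with the highest CPM. Its 6 dorsal prothorax libraries ran from 626 to 839 CPM with a median of 674 CPM, against 217 to 277 CPM with a median of 259 CPM in the wing, the next highest tissue. The groups did not overlap in any tissue, and the lowest dorsal prothorax library was more than 2 times the highest library elsewhere. On the scale of the fitted model, which uses TMM scaling, its log2 ratio of dorsal prothorax to wing was 1.31 ± 0.11 (SE) and that to support structures was 2.76 ± 0.11.

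XM_023043989.1, which had no gene in the table of names, ran from 607 to 1639 CPM in the dorsal prothorax with a median of 1309 CPM. In the carinated margin, the next highest tissue, it ran from 247 to 506 CPM with a median of 415 CPM. The lowest dorsal prothorax library, that of animal 4 at 607 CPM, was above the highest library elsewhere, 573 CPM in the posterior margin of animal 6, so no tissue overlapped. The log2 ratio of dorsal prothorax to carinated margin was 1.35 ± 0.29 (SE).

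XM_023047165.1 (LOC111415468) had the highest dorsal prothorax mean, 1610 ± 825 CPM, against 986 ± 460 CPM in the posterior margin (SD, n = 6 each). Its dorsal prothorax libraries ran from 944 to 3135 CPM with a median of 1418 CPM, and those of the posterior margin from 514 to 1699 CPM with a median of 929 CPM. The 2 tissues overlapped between animals, yet in all 6 animals the dorsal prothorax was the highest of the 7 paired tissues. Animal 4 had the highest level of this transcript in each of the 7 tissues.

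XM_023048848.1 (LOC111416754) was lowest in animal 4. It averaged 947 ± 402 CPM in the dorsal prothorax against 287 ± 118 CPM in the thoracic horn (SD, n = 6 each). This ratio of 3.3 was 1.53 with TMM-scaled CPM, and the fitted log2 ratio of dorsal prothorax to horn was 0.61 ± 0.43 (SE). The fit did not pair tissues by animal, so that SE includes differences between animals that their tissues share. Animal 4 was the lowest in all 7 paired tissues, with 254 CPM in the dorsal prothorax, 144 CPM in the horn and 94.2 CPM in the carinated margin. XM_023048862.1 (LOC111416768) was likewise lowest in animal 4 throughout, with 281 CPM in the dorsal prothorax, where its median was 716 CPM, against a median of 424 CPM in the wing.

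The other members of high CPM were closer to their neighbouring tissues. XM_023064177.1 (LOC111428590) averaged 959 ± 212 CPM in the dorsal prothorax and 629 ± 140 CPM in the posterior margin. Its TMM-scaled ratio to the next tissue was 1, and the fitted log2 ratio of dorsal prothorax to horn was 0.01 ± 0.19 (SE). XM_023060242.1 (LOC111425952) averaged 875 ± 189 CPM in the dorsal prothorax and 573 ± 177 CPM in the carinated margin. XM_023063968.1 (LOC111428454) averaged 683 ± 209 CPM in the dorsal prothorax and 301 ± 62.4 CPM in the posterior margin (SD, n = 6 each throughout). Of these 3, XM_023063968.1 alone had every dorsal prothorax library above every other library, with 434 CPM as the lowest in the dorsal prothorax and 384 CPM as the highest elsewhere.

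**Figure D2:**
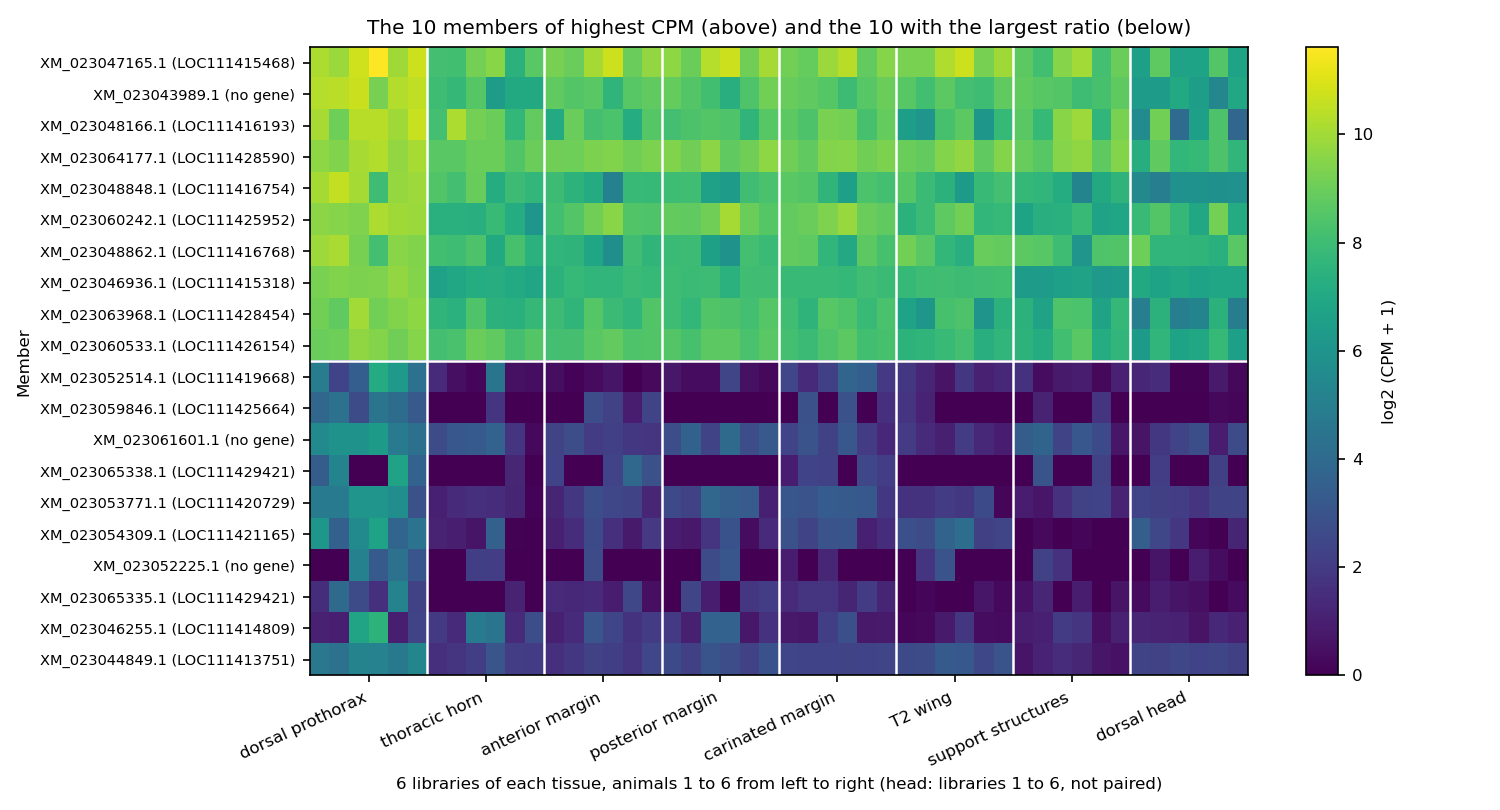
Levels of 20 members in each of the 48 libraries, as log2 (CPM + 1), with 6 libraries to a tissue and white lines between tissues. The 10 members of highest CPM are in the upper block and remain detected in every tissue, whereas the 10 with the largest ratio, in the lower block, are at or near 0 CPM in many libraries outside the dorsal prothorax.

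The 10 members with the largest ratio to the next tissue had dorsal prothorax means between 10.8 and 49.7 CPM. XM_023052514.1 (LOC111419668) had the largest ratio, 7.83. Its dorsal prothorax libraries ran from 3.98 to 139 CPM with a median of 24.1 CPM, against 1.69 to 13 CPM with a median of 4.02 CPM in the carinated margin. The tissues overlapped between animals, the mean was carried by animals 4 and 5, and in each of the 6 animals the dorsal prothorax was the highest of the 7 paired tissues.

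XM_023044849.1 (LOC111413751) was the most even of these 10. It ran from 19.6 to 39 CPM in the dorsal prothorax with a median of 29.7 CPM, against 4.7 to 8.74 CPM with a median of 6.21 CPM in the wing. The lowest dorsal prothorax library was more than 2 times the highest library of any other tissue. The log2 ratio of dorsal prothorax to wing was 2.05 ± 0.23 (SE), and that to support structures was 4.64 ± 0.27.

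XM_023061601.1, without a gene in the table of names, also did not overlap with any other tissue. It ran from 18.3 to 78.7 CPM in the dorsal prothorax with a median of 51.4 CPM, against 4.21 to 14.9 CPM with a median of 7.12 CPM in the posterior margin. XM_023053771.1 (LOC111420729) was highest in the dorsal prothorax in every animal, at 6.36 to 65.8 CPM against 2.64 to 9.38 CPM in the carinated margin. Animal 6 had its lowest level in 5 of the 7 paired tissues.

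Several large ratios rested on a few animals. XM_023046255.1 (LOC111414809) had 108 and 183 CPM in the dorsal prothorax of animals 3 and 4 and at most 4.26 CPM in that of the other 4 animals, against 26.5 and 21.4 CPM in the horn of animals 3 and 4. In only 2 animals was the dorsal prothorax its highest tissue. XM_023065338.1 (LOC111429421) had 103 CPM in the dorsal prothorax of animal 5 and no counts in that of animals 3 and 4. XM_023052225.1 had no counts in the dorsal prothorax of animals 1 and 2 and 7.68 to 33.5 CPM in the other 4.

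SCA was the only member whose gene carried a symbol other than a locus number, and that symbol may be shortened. Its transcript XM_023051646.1 ran from 9.64 to 27.3 CPM in the dorsal prothorax with a median of 21.5 CPM, against 0 to 18.9 CPM with a median of 14.7 CPM in the anterior margin. The tissues overlapped, and the dorsal prothorax was the highest tissue in 4 of 6 animals. The sum of the 2 transcripts matched to this gene averaged 22.19 CPM in the dorsal prothorax against 20.14 CPM in the posterior margin, a ratio of 1.1, so that sum was below the threshold used for transcripts.

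The choice of scaling decided much of the membership. TMM factors, by which library totals are multiplied, were 1.16 to 1.35 in the dorsal prothorax and 0.531 to 0.639 in the thoracic horn. Scaling by them lowers the dorsal prothorax values and raises those of the horn. With TMM-scaled CPM, 178 of the 484 members (36.8%) met the same rule, and no transcript outside the 484 did. The median ratio to the next tissue was then 1.45, with a range of 0.7 to 5.76.

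**Figure D3:**
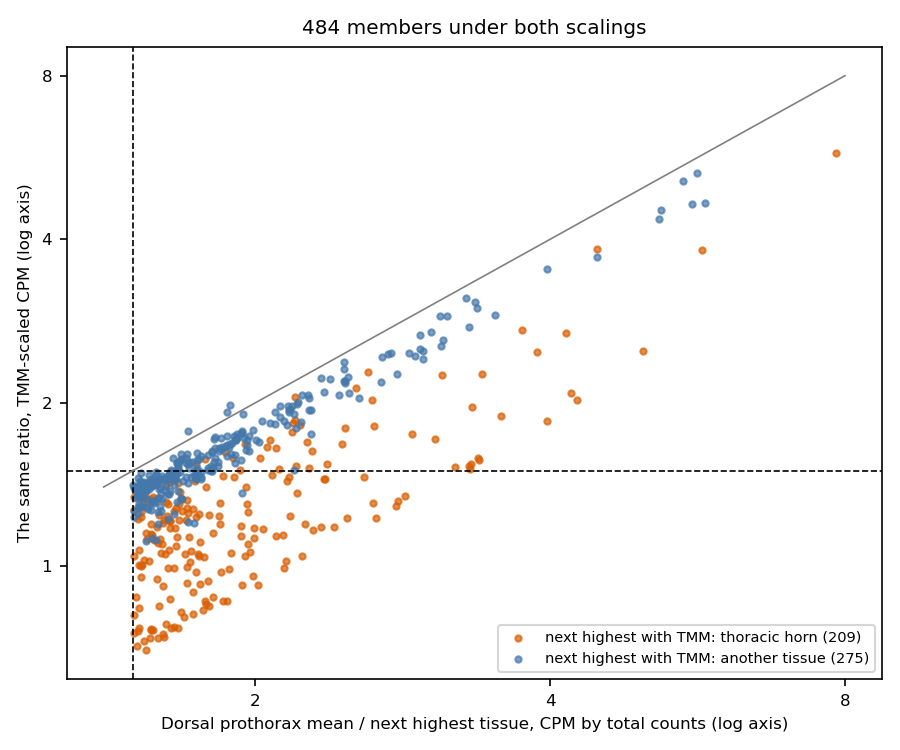
Ratio of the dorsal prothorax mean to the next highest tissue mean for each of the 484 members, with CPM by total counts on the horizontal axis and TMM-scaled CPM on the vertical axis, both on log axes. Dashed lines mark 1.5 on each axis, the grey line marks equal ratios, and colour marks whether the thoracic horn is the next tissue after TMM scaling, which holds for 209 members.

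The loss was largest against the horn. With TMM-scaled CPM the dorsal prothorax was at least 1.5 times the horn for 308 members, the posterior margin for 390, the carinated margin for 401, the anterior margin for 423, the support structures for 436, the wing for 453 and the head for 463. The horn became the next highest tissue for 209 members, against 35 with total counts. The fitted log2 ratio of dorsal prothorax to horn had a median of 0.82 over the members and 0.18 over all 15239 transcripts tested. For the wing those medians were 1.25 over the members and -0.01 over all, and for the head they were 1.97 over the members and -0.05 over all.

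Some of the highest members show the size of this shift. XM_023048166.1 (LOC111416193) averaged 1139 ± 359 CPM in the dorsal prothorax and 532 ± 335 CPM in the horn (SD, n = 6 each). Its ratio of 2.14 by total counts was 0.992 after TMM scaling, and its fitted log2 ratio of dorsal prothorax to horn was -0.01 ± 0.56 (SE). XM_023060533.1 (LOC111426154) averaged 637 ± 127 CPM in the dorsal prothorax and 365 ± 92.7 CPM in the horn, and its TMM-scaled ratio was 0.818. By contrast XM_023046936.1 stayed at 2.46 and XM_023044849.1 at 3.84. Of the 54 members whose dorsal prothorax libraries lay above all others, 36 also met the rule with TMM-scaled CPM, and of the 234 highest in all 6 animals, 99 did.

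The next values come from the libraries that chose the members. A single high dorsal prothorax library raises the mean that the rule used, so they describe the selected set and nothing is read from them. The coefficient of variation over the 6 dorsal prothorax libraries had a median of 43.6% for the members and 24.3% for the 6922 transcripts with at least 5 CPM. At least 1 dorsal prothorax library had no counts for 73 members (15.1%), against 6.66% of the 6922. The highest dorsal prothorax library was at least 2 times the second highest for 43 members.

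By the same libraries, animal 3 had the highest dorsal prothorax level for 199 members (41.1%), against 19.5% of the 6922 transcripts. Animal 6 was highest for 78 members (16.1%, against 24.1%), animal 4 for 68 (14%, against 19.5%) and animal 2 for 67 (13.8%, against 16.8%). Animal 5 was highest for 53 members (11%, against 13.3%) and animal 1 for 19 (3.93%, against 6.8%). Relative to the mean of the 6 libraries, animal 3 had a median of 1.31 over the members and 1.01 over the 6922. Animal 1 had a median of 0.742 over the members and 0.912 over the 6922. Without replicate 3, 424 transcripts met the rule, of which 367 were among the 484.

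The libraries of the other tissues also entered the rule, as the levels that a member had to exceed. Among the 438 members with at least 1 CPM in the horn, animal 3 was the highest of the 6 horn libraries for 52.1%, against 26.1% of the 9003 coding transcripts with that level. In the anterior margin the share of members highest in animal 3 was 37.2% against 36.5% of all, in the posterior margin it was 15.8% against 14.4%, and in the carinated margin it was 14.5% against 11.6%. The animal that was highest in the dorsal prothorax was also highest in at least 4 of the other 6 paired tissues for 119 members (24.6%), against 25% of the 6922. Since the same animals chose the members, these shares are a description, and how far the choice sets them was not tested.

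**Figure D4:**
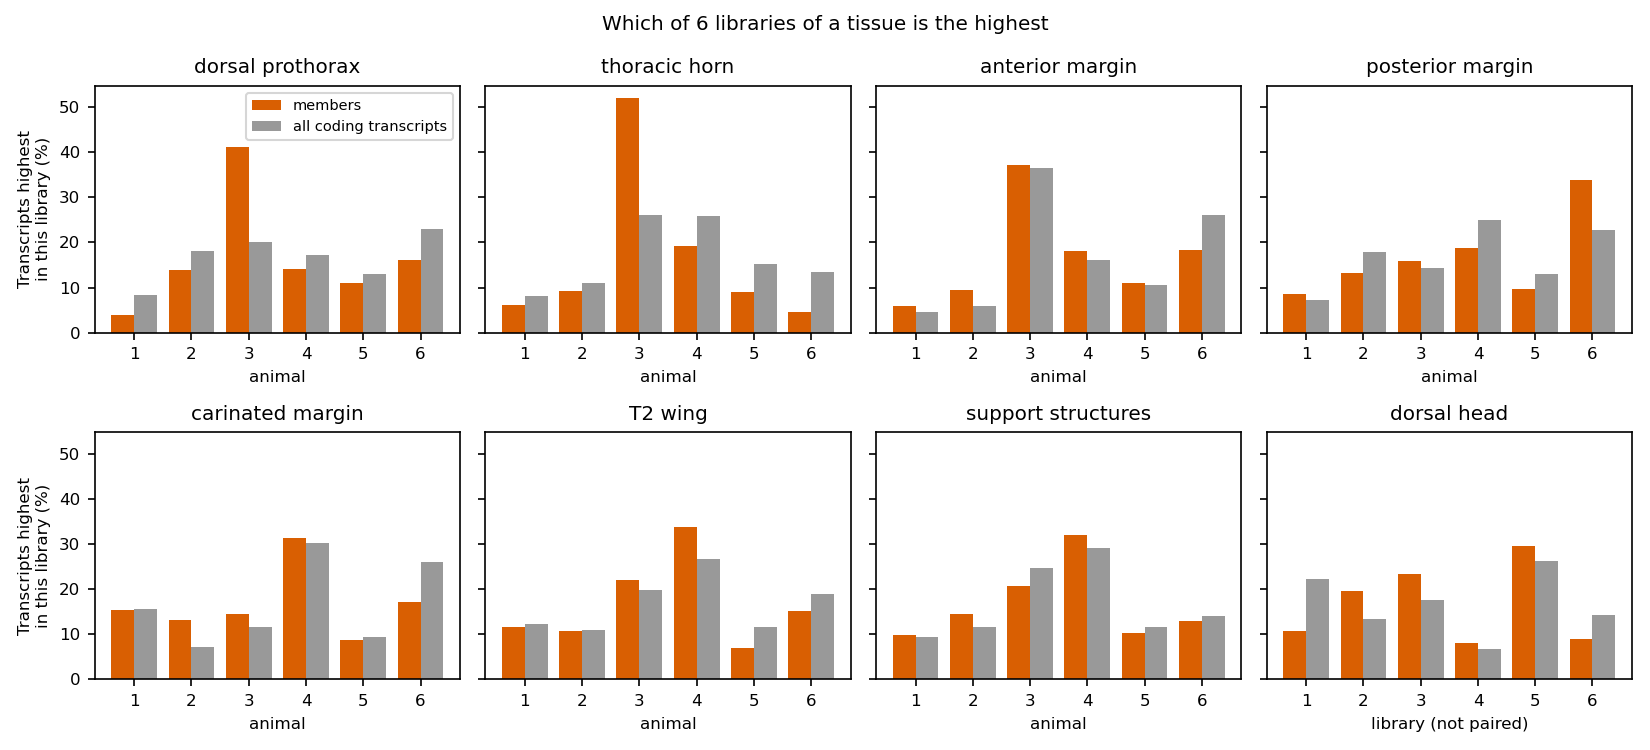
Share of transcripts whose highest library within a tissue is that of each animal, for members (orange) and for all coding transcripts (grey) with at least 1 CPM in that tissue. Animal 3 is the highest for 41.1% of members in the dorsal prothorax and for 52.1% in the horn, above the grey bars of 20.2% and 26.1%, and the bars are close to each other in the anterior and carinated margins for that animal.

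Some members were present in part of the animals and not detected in the others. XM_023062784.1 had 267, 474 and 396 CPM in the dorsal prothorax of animals 1, 3 and 6 and no counts in that of animals 2, 4 and 5. The same 3 animals had 134 to 247 CPM in the horn and 151 to 253 CPM in the carinated margin, and the other 3 had none in any of the 7 paired tissues. In the head only library 1 held it, at 0.523 CPM. XM_023065013.1 (LOC111429171) was highest in animal 4 in all 7 paired tissues, at 1380 CPM in the dorsal prothorax against 40.8 to 435 CPM in the other 5 animals.

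Members were counted per transcript, and transcripts of a gene share reads. A gene name was found for 337 members (69.6%), against 66.9% of all coding transcripts, and these belonged to 291 genes. Of the 291 genes, 181 had at least 2 transcripts in the table. When all matched transcripts of a gene were summed, 74 of the 181 were at least 1.5 times each other tissue in the dorsal prothorax, and 16 were highest in another tissue. Transcripts without a gene name are in no sum, so the sums and shares given for a gene may leave out some of its transcripts. Estimated counts divide such reads between transcripts, so a member of one of these genes is less certain than its gene.

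In some genes the sum of the matched transcripts was high in the dorsal prothorax. LOC111426916 had all 3 of its matched transcripts among the members, and their sum averaged 69.8 CPM in the dorsal prothorax against 24.01 CPM in the horn. LOC111429421 had 3 members among 13 transcripts, with a sum of 65.61 CPM in the dorsal prothorax against 17.42 CPM in the posterior margin. For LOC111424281, chosen after its values were seen, the member XM_023057778.1 made up 96.7% of the sum of matched transcripts. That sum averaged 296.2 CPM in the dorsal prothorax against 92.04 CPM in the posterior margin.

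In others, also chosen after their values were seen, the member took a minority of the estimated counts of its gene. XM_023058427.1 made up 26.4% of LOC111424761, whose sum was 398.3 CPM in the dorsal prothorax against 910.3 CPM in the horn. XM_023059202.1 made up 3.47% of LOC111425272, whose sum was 4541 CPM in the dorsal prothorax against 5230 CPM in the horn. LOC111415678 had the most members, 7 of 38 transcripts, and its sum was 244.1 CPM in the dorsal prothorax against 169.7 CPM in the posterior margin, a ratio of 1.44, below the threshold used for transcripts.

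Of the 275 such genes with a place in the reference annotation, 18 (6.55%) were next to another, forming 9 pairs. The 275 were 2.07% of the 13296 placed protein-coding genes. The number of pairs that this share alone would give was not worked out, so the pairs are a description only. One pair was LOC111425952, whose transcript XM_023060242.1 is among the 10 of highest CPM, and LOC111426054. Another was LOC111429410 and LOC111429421. Whether neighbouring genes share reads was not tested.

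The rule did not set the other tissues against each other, and the members were compared between those tissues by test. It did cap the mean of each of them, by total-count CPM, against the dorsal prothorax mean. A transcript as high in one of these tissues as in the dorsal prothorax could thus not be a member. The shares of members called higher or lower may follow in part from this cap, and how far was not tested. Each of 6 tissues was compared with the carinated margin by the quasi-likelihood F-test of edgeR over all 15239 transcripts that passed a filter on low counts, and calls were made at an adjusted p (Benjamini-Hochberg) under 0.05. All 484 members passed the filter. The filter was set over all 8 tissues, dorsal prothorax included, so members could pass it through their dorsal prothorax counts alone, and with the 2 tissues of a comparison alone 462 to 470 of the 484 passed. The 6 comparisons share the carinated margin libraries, so their results are not independent of each other.

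**Figure D5:**
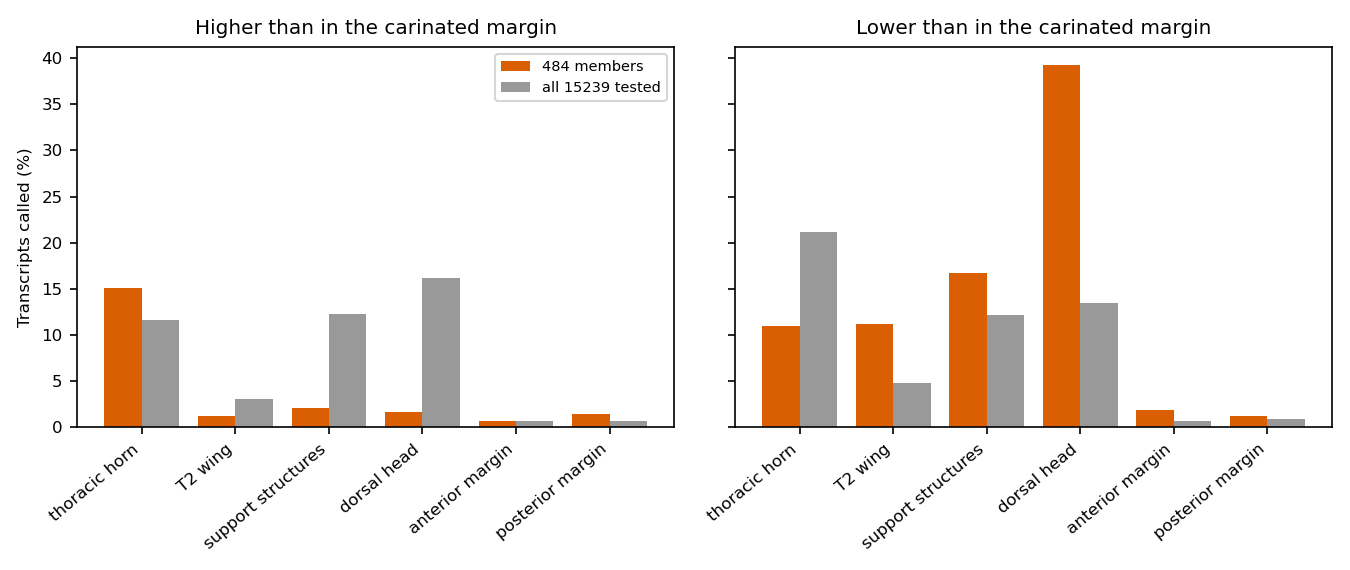
Share of transcripts called higher (left) or lower (right) than in the carinated margin for each of 6 tissues, among the 484 members (orange) and among all 15239 tested (grey). The longest orange bar is the 39.3% of members lower in the dorsal head, and few members were called in the anterior and posterior margins.

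In the thoracic horn 73 members (15.1%) were higher and 53 (11%) were lower than in the carinated margin, against 11.6% higher and 21.1% lower among all tested. The median log2 ratio was 0.17 over the members and -0.16 over all. This split depended on scaling. With total counts, under which the median log2 ratio of all transcripts moved by -0.84, 15 members (3.1%) were higher and 167 (34.5%) lower, against 3.62% higher and 51% lower among all tested. With RLE (relative log expression) size factors, which moved it by 0.12, 88 members (18.2%) were higher and 39 (8.06%) lower, against 14.9% higher and 17% lower among all tested. With the horn and the carinated margin fitted alone, 76 of 462 members (16.5%) were higher and 31 (6.71%) lower, against 14.7% higher and 16.8% lower among all 12146 tested. With the animal as a replicate block 109 members (22.5%) were higher and 73 (15.1%) lower. Among all 14971 tested in that fit, 15.9% were higher and 25.5% lower.

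XM_023045326.1 was the member with the largest rise in the horn. Its 6 dorsal prothorax libraries ran from 21.1 to 92.9 CPM and its horn libraries from 8.42 to 22.2 CPM with a median of 12.3 CPM, against no rounded counts in any of the 6 carinated margin libraries. The horn and the carinated margin did not overlap. Against a floor of 3 counts over the 6 carinated margin libraries, the horn was higher by at least 905-fold by total counts and 1631-fold with TMM scaling (edgeR adjusted p = 1.2e-08), and the call held with each replicate left out. It also had no rounded counts in the wing. Bounds given for other tissues are on total counts, and TMM scaling moved those by less than 1.5 times.

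XM_023063128.1 (LOC111427810) ran from 8.88 to 24.9 CPM in the horn with a median of 10.5 CPM, against 0.76 to 2.56 CPM with a median of 1.33 CPM in the carinated margin. The libraries did not overlap, and the log2 ratio was 3.99 ± 0.35 (SE; edgeR adjusted p = 3.2e-12). XM_023054142.1 (LOC111421032) was the member with the largest fall. It had no rounded counts in the horn, against 10.7 to 40.2 CPM with a median of 18.2 CPM in the carinated margin, and was at least 704-fold lower in the horn by total counts and 391-fold lower with TMM scaling (edgeR adjusted p = 2.6e-05), a call that held with each replicate left out.

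The other 2 members with the largest ratios in the horn lost their calls when single replicates were left out. XM_023055349.1 had 13.6 CPM in the horn of animal 5 and at most 0.199 CPM in that of the others, against no rounded counts in the carinated margin, and its call (edgeR adjusted p = 0.024) was lost without replicate 3 or replicate 5. Its dorsal prothorax mean rested on animal 4 alone, at 56.8 CPM against at most 0.101 CPM in the other 5 animals. XM_023051302.1 (LOC111418676) had no counts in the horn against 0 to 9.42 CPM in the carinated margin (edgeR adjusted p = 0.026). That call was lost without replicate 1, 2, 3, 5 or 6, and with the transcripts of its gene summed the log2 ratio was 0.01 (edgeR adjusted p = 0.98).

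In the T2 wing 6 members (1.24%) were higher and 54 (11.2%) were lower than in the carinated margin, against 3.02% higher and 4.8% lower among all tested. The median log2 ratio was -0.32 over the members and -0.02 over all. With the animal as a replicate block, which the numbers of these tissues allow, 9 members (1.86%) were higher and 117 (24.2%) lower, against 7.29% higher and 9.38% lower among all 14971 tested in that fit. The count of 60 calls was 32 without replicate 1, 36 without replicate 2, 37 without replicate 5 and 38 without replicate 6. The shares among all tested fell as well, to 1.64% to 2.05% higher and 3.37% to 3.52% lower in those 4 fits.

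XM_023065013.1 had the largest fall in the wing that held with each replicate left out. It ran from 0.0888 to 1.24 CPM in the wing with a median of 0.852 CPM, against 18.3 to 56 CPM with a median of 32.2 CPM in the carinated margin. The libraries did not overlap, and the log2 ratio was -5.71 ± 0.94 (SE; edgeR adjusted p = 3.1e-05). XM_023065338.1 had no counts in the wing against 0 to 4.63 CPM in the carinated margin and was at least 186-fold lower (edgeR adjusted p = 0.037), a call lost without replicate 1, 2, 3, 5 or 6.

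XM_023045312.1 (LOC111414125) was also lower in the wing, with 1.38 to 5.9 CPM and a median of 4.04 CPM, against 8.57 to 47.8 CPM and a median of 17.7 CPM in the carinated margin. The log2 ratio was -2.78 ± 0.53 (SE; edgeR adjusted p = 0.00025). The 2 largest rises in the wing were small, 1.07 ± 0.32 for both XM_023059425.1 (LOC111425425; edgeR adjusted p = 0.03) and XM_023063128.1 (edgeR adjusted p = 0.028). The first was lost without replicate 1, 2, 3, 5 or 6 and the second without replicate 1, 2, 3 or 6.

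In the support structures 10 members (2.07%) were higher and 81 (16.7%) were lower than in the carinated margin, against 12.3% higher and 12.1% lower among all tested. The median log2 ratio was -0.28 over the members and -0.07 over all. With the animal as a replicate block 20 members (4.13%) were higher and 125 (25.8%) lower, against 15.8% higher and 17.7% lower among all tested in that fit.

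XM_023056543.1 (LOC111423298) had 0 to 0.559 CPM in the support structures with a median of 0.425 CPM, against 6.33 to 11.5 CPM with a median of 7.41 CPM in the carinated margin. The libraries did not overlap, and the log2 ratio was -4.47 ± 0.36 (SE; edgeR adjusted p = 3.1e-13). XM_023046936.1, the steady member described above, had 77 to 101 CPM in the support structures against 211 to 262 CPM in the carinated margin, with a log2 ratio of -1.47 ± 0.11 (SE; edgeR adjusted p = 1.7e-14). In the horn it had 97.6 to 151 CPM by total counts, below every carinated margin library. Under the TMM scaling of the fit its log2 ratio of horn to carinated margin was -0.04 ± 0.1 (SE; edgeR adjusted p = 0.83), which missed the threshold.

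XM_023044849.1 was lower in the support structures at -2.1 ± 0.24 (SE; edgeR adjusted p = 3.7e-09) and XM_023054309.1 (LOC111421165) at -6.07 ± 1.25 (SE; edgeR adjusted p = 0.0002), and both calls held with each replicate left out. XM_023054309.1 had at most 0.223 CPM in the support structures, against 1.06 to 7.05 CPM in the carinated margin. The 2 largest falls, XM_023059158.1 and XM_023058175.1, had 0 counts in all support structure libraries, against 503 and 522 rounded counts in the carinated margin. The bounds on the fall were 91.3-fold for XM_023059158.1 (edgeR adjusted p = 0.043) and 94.8-fold for XM_023058175.1 (edgeR adjusted p = 0.038). Nearly all of their carinated margin counts came from 2 animals each. Both calls were lost with the replicate block, the first also without replicate 1, 2, 3, 5 or 6 and the second without any one replicate.

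Of the rises in the support structures, XM_023059425.1 ran from 3.65 to 8.31 CPM with a median of 4.6 CPM, against 0.736 to 2.3 CPM with a median of 1.21 CPM in the carinated margin. The libraries did not overlap, and the log2 ratio was 2.09 ± 0.33 (SE; edgeR adjusted p = 3.6e-06). XM_023045326.1 held 13 rounded counts in the support structures against none in the carinated margin, at least 7.96-fold higher (edgeR adjusted p = 0.039), a call lost with the replicate block and without replicate 2, 4, 5 or 6. XM_023055349.1 had 10.3 to 12 CPM in 3 support structure libraries and at most 0.0238 CPM in the other 3, against none in the carinated margin, and its call (edgeR adjusted p = 0.026) was lost without replicate 1, 2 or 3.

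In the dorsal head 8 members (1.65%) were higher and 190 (39.3%) were lower than in the carinated margin, against 16.2% higher and 13.4% lower among all tested. The median log2 ratio was -0.94 over the members and -0.02 over all. Head libraries were deeper than the others and their numbers pair with no other tissue, so no block by animal could be set for this comparison.

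Of the 10 members with the highest CPM, 8 were called lower in the head. XM_023048848.1 ran from 29.9 to 60.9 CPM in the head with a median of 56.3 CPM, against 94.2 to 398 CPM with a median of 301 CPM in the carinated margin, with a log2 ratio of -2.24 ± 0.45 (SE; edgeR adjusted p = 0.00012). XM_023043989.1 ran from 41 to 132 CPM in the head with a median of 85.2 CPM, against 247 to 506 CPM in the carinated margin, with a log2 ratio of -1.93 ± 0.3 (SE; edgeR adjusted p = 1.9e-06). Neither transcript overlapped between these tissues.

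The other 6 called lower in the head had log2 ratios from -1.64 to -0.78. XM_023046936.1 had the smallest at -0.78 ± 0.11 (SE; edgeR adjusted p = 1.6e-07), and XM_023060242.1 lost its call without replicate 1, 3 or 4. The 2 not called were XM_023048166.1, at -1.08 ± 0.57 (SE; edgeR adjusted p = 0.16), and XM_023048862.1, at 0.02 ± 0.43 (SE; edgeR adjusted p = 0.99).

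The largest falls in the head were those of XM_023062784.1, detected in animals 1, 3 and 6 of the paired tissues, whose call (edgeR adjusted p = 0.016) was lost without replicate 3 or 6, and of XM_023064712.1. The second had no rounded counts in the head against 0 to 8.38 CPM in the carinated margin, where its median was 0.0844 CPM. By the summed counts it was at least 401-fold lower (edgeR adjusted p = 0.017), a bound that rests on part of the carinated margin libraries. Of the rises, XM_023045326.1 ran from 0.0143 to 2.07 CPM in the head against no rounded counts in the carinated margin, at least 61.4-fold higher (edgeR adjusted p = 3.7e-05), and it held with each replicate left out.

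In the anterior margin 3 members (0.62%) were higher and 9 (1.86%) were lower than in the carinated margin, against 0.623% higher and 0.702% lower among all tested. In the posterior margin 7 members (1.45%) were higher and 6 (1.24%) were lower, against 0.65% higher and 0.919% lower among all tested. The median log2 ratios over the members were -0.06 and 0.02 in these tissues, and -0.03 over all tested in both. With the animal as a replicate block 8 members (1.65%) were higher and 22 (4.55%) lower in the anterior margin, against 2.26% higher and 2.42% lower among all tested in that fit. In the posterior margin 18 (3.72%) were then higher and 16 (3.31%) lower, against 1.89% higher and 2.73% lower among all tested.

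These counts fell when any single replicate but replicate 4 was left out, and so did the shares among all tested. Without replicate 4 the anterior margin kept 12 calls, against 0.502% higher and 0.653% lower among all tested. The posterior margin then had 17 calls, against 0.731% higher and 0.874% lower among all tested. In the anterior margin the 12 calls became 4 without replicate 1, 6 without replicate 2, 4 without replicate 3, 6 without replicate 5 and 5 without replicate 6. Among all tested, 0.336% to 0.428% were then higher and 0.454% to 0.512% lower. In the posterior margin the 13 calls became 8 without replicate 2, 8 without replicate 3 and 7 without replicate 6. Among all tested, 0.343% to 0.499% were then higher and 0.442% to 0.761% lower. With total counts 4 members were higher and 4 lower in the anterior margin, 0.826% each, against 1.38% higher and 0.505% lower among all tested. In the posterior margin 7 were then higher and 0 lower, against 0.755% higher and 0.643% lower among all tested. In that comparison 45 members had an unadjusted p under 0.05 by edgeR. The matching share over all tested was not taken, so nothing is read from that count. There DESeq2, with its own size factors, called 9 members higher and 10 lower, against 1.17% higher and 1.75% lower among all tested.

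XM_023045326.1 and XM_023045328.1, both without a gene in the table of names, were the largest rises in both margins. XM_023045328.1 ran from 10.9 to 30.2 CPM in the dorsal prothorax with a median of 22 CPM. It ran from 1.4 to 5.29 CPM in the anterior margin and from 2.4 to 13.2 CPM in the posterior margin, against 0.201 to 0.364 CPM in the carinated margin. Neither margin overlapped with the carinated margin, and the log2 ratios were 3.55 ± 0.66 in the anterior margin (SE; edgeR adjusted p = 0.00076) and 4.34 ± 0.68 in the posterior margin (SE; edgeR adjusted p = 5.6e-05). It was higher in the horn as well, at 4.83 ± 0.69 (SE; edgeR adjusted p = 3.5e-07).

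XM_023045326.1 averaged 3.63 ± 3.81 CPM in the anterior margin and 10.2 ± 5.57 CPM in the posterior margin (SD, n = 6 each), against no rounded counts in the carinated margin. It was at least 228-fold higher in the anterior margin (edgeR adjusted p = 2.7e-05) and at least 672-fold higher in the posterior margin (edgeR adjusted p = 4.3e-06). The calls of both transcripts in these margins held with each replicate left out. XM_023063128.1 was higher in the posterior margin too, at 8.12 to 12.6 CPM against 0.76 to 2.56 CPM in the carinated margin, a log2 ratio of 2.69 ± 0.34 (SE; edgeR adjusted p = 8.4e-07).

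Of the falls in the margins, XM_023045312.1 ran from 2.2 to 12.8 CPM in the anterior margin with a median of 2.93 CPM, against 8.57 to 47.8 CPM with a median of 17.7 CPM in the carinated margin. Only the library of animal 2 overlapped, and the log2 ratio was -2.48 ± 0.52 (SE; edgeR adjusted p = 0.0043), a call lost without replicate 1. XM_023052514.1 was lower in the anterior margin at -4.73 ± 1.14 (SE; edgeR adjusted p = 0.019), XM_023050368.1 in the posterior margin at -1.26 ± 0.33 (SE; edgeR adjusted p = 0.037) and XM_023056543.1 in the posterior margin at -1.13 ± 0.3 (SE; edgeR adjusted p = 0.037). These 3 calls were each lost without replicate 1, 2, 3, 5 or 6.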

How the data were processed

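The authors deposited expected counts, which are estimates and can be fractional, with 23725 rows of RefSeq transcripts and 60 columns. Per the submitters' processing notes, DESeq2, RSEM 1.3.0, Bowtie2 2.3.2 and Trimmomatic 0.32 were used, with no role stated. A Qiagen RNeasy Plus Micro extraction and a stranded mRNA library kit were used, per the labels' protocols. Neither the genome build nor the strand setting is given in the sources used here. Of the deposited values, 29.71% were fractional (more than 0.001 off an integer). Estimation divides reads among transcripts of a gene and among similar genes.

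Columns of the wing and carinated margin carry no side. Column k and column k+6 correlated in their deviations from the tissue mean in the wing (r = 0.217 to 0.426, other pairings at most 0.101) and in the carinated margin (r = 0.19 to 0.329, other pairings at most 0.0457), and each of 12 columns correlated best with its partner, so these were summed. Across the 7 tissues other than the head, libraries of one number had correlated deviations (r = 0.183 to 0.574) and 126 of 126 comparisons were best with the own number, so numbers mark animals. With the head the range was -0.173 to 0.0766, and 0 of 42 comparisons were best with the own number. Other pairings with the head reached 0.279. Whether head libraries came from the same animals in another order was not tested.

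Levels are CPM by total counts, as mean ± SD over 6 libraries, and the membership rule used all 60 columns. Counts were rounded and kept by filterByExpr (minimum count 10, minimum total count 15). The 48 libraries were fitted with edgeR 4.0.16 (R 4.3.3) under TMM scaling with tissue as the only term. Log2 ratios are from that fit and differ from ratios of CPM by the scaling. Where a tissue had no rounded counts, the fold is a bound against 3 counts summed over its 6 libraries. DESeq2 1.42.0 was an alternative. Simulated data for the horn against the carinated margin held 15239 transcripts. In them 68 of 100 changes of 1 on the log2 scale and 100 of 100 changes of 2 were recovered, with 11 false calls. Whether the simulated spread matches that of the members, with their differences between animals and libraries without counts, was not tested. These rates therefore describe the simulated data only and are not read as rates for the calls reported here. Fold bounds cover counting error only, while SD and SE include the spread between animals. The reported SE and adjusted p do not use the pairing of tissues by animal.

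Names and order of genes were read from RefSeq's annotation of IU_Otau_3.0, and no coordinates or sequences were used. Lists by product name or protein sequence were void for lack of such annotation. Members named are the 10 of highest CPM, the 10 of largest ratio, the 2 largest rises and falls called in each comparison, those with a symbol other than a locus number, and those nearest the thresholds. Others are said to be chosen after their values were seen. The members and lists were chosen with earlier results of these data known.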

Additional observations from a re-analysis of the deposited data

Results flagged for a closer look

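In 17 of 125 groups of 6 libraries tested among the named members, the highest or lowest library stood apart by Dixon's test of its gap to the nearest library over the group's range. The test's nominal rate of about 1 in 20 groups is for values with a normal spread, which was not checked for these CPM values. The named members were also chosen on the same libraries, for high levels, large ratios or large rises and falls. That rate is therefore no measure of how many flags to expect here, and whether 17 is an excess was not tested. The flagged groups are listed as a description only.

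Animal 4 accounted for 7 of them. In the dorsal prothorax, XM_023047165.1 had 3135 CPM in animal 4 (nearest 1765 CPM), XM_023065013.1 had 1380 CPM (nearest 435 CPM), XM_023055349.1 had 56.8 CPM (nearest 0.101 CPM), and XM_023043989.1 had its lowest value, 607 CPM (nearest 1256 CPM). In the horn of animal 4, XM_023065013.1 had 277 CPM (nearest 104 CPM) and XM_023044849.1 had 7.39 CPM (nearest 3.43 CPM). In its carinated margin XM_023059425.1 had 2.3 CPM (nearest 1.29 CPM).

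In the dorsal prothorax of other animals, XM_023046936.1 had 839 CPM in animal 5 (nearest 701 CPM), XM_023065338.1 had 103 CPM in animal 5 (nearest 36.5 CPM) and XM_023045326.1 had 92.9 CPM in animal 3 (nearest 47.5 CPM). XM_023055349.1 had 13.6 CPM in the horn of animal 5 (nearest 0.199 CPM).

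In animal 2, XM_023045312.1 had 12.8 CPM in the anterior margin (nearest 3.44 CPM) and 9.39 CPM in the support structures (nearest 5.8 CPM), and XM_023050368.1 had its lowest wing value, 17.4 CPM (nearest 25.3 CPM). In the carinated margin, XM_023058175.1 had 11.5 CPM in animal 1 (nearest 3.62 CPM) and XM_023053771.1 had its lowest value, 2.64 CPM, in animal 6 (nearest 6.9 CPM). In the head, XM_023062784.1 had 0.523 CPM in library 1 and 0 CPM in the others.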

How the results depend on the processing

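The number of members was 484 by the rule, 136 at a ratio of 2, 178 with TMM-scaled CPM, and 424 to 516 with 1 replicate left out. With sides summed, 10 CPM as the minimum or medians, it was 487, 361 and 441. With the transcripts of each gene summed and transcripts without a gene name kept single, 334 such units met the rule. Wing calls among the members, 60 in the reported fit, were 38 with total counts, 94 with the 2 tissues alone, 126 with the replicate block, and 32 to 60 with 1 replicate left out. Shares among all tested moved too, from 3.02% higher and 4.8% lower as reported. They were 5.1% and 3.59% with total counts, 7.02% and 6.99% with the 2 tissues alone, and 7.29% and 9.38% with the replicate block. With 1 replicate left out they were 1.64% to 2.64% higher and 3.37% to 4.52% lower. Support structure calls were 145 with the replicate block, against 91 reported. Among all tested 15.8% were then higher and 17.7% lower, against 12.3% and 12.1% as reported. Anterior margin calls, 12 as reported, were 30 with the replicate block and 4 to 12 with 1 replicate left out. Shares among all tested, 0.623% higher and 0.702% lower as reported, were 2.26% and 2.42% with the block. With 1 replicate left out they were 0.336% to 0.502% higher and 0.454% to 0.653% lower. Posterior margin calls, 13 as reported, were 7 with total counts, 34 with the replicate block and 7 to 17 with 1 replicate left out. Shares among all tested, 0.65% higher and 0.919% lower as reported, were 0.755% and 0.643% with total counts. They were 1.89% and 2.73% with the block. With 1 replicate left out they were 0.343% to 0.731% higher and 0.442% to 0.874% lower. The cause of these shifts was not tested, except that with fewer libraries or a block the residual degrees of freedom differ by construction. Horn calls (126) and head calls (198) stayed within 1.5 times under every alternative run, though with total counts the horn split was 15 higher and 167 lower, against 73 higher and 53 lower as reported. Over the alternatives, shares among all tested were 3.62% to 16.5% higher and 14.9% to 51% lower in the horn. In the head they were 9.27% to 20.1% higher and 9.38% to 19.3% lower. No block was set for the head, whose numbers do not pair.

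For 67 log2 ratios of named members called in the reported fit, alternatives kept the call and direction in 682 cases, lost the call in 158 and reversed the direction in 2. XM_023044849.1 in the horn was -0.22 with total counts, and XM_023051302.1 in the horn was 0.01 with transcripts of a gene summed. Leaving out replicate 3 lost 26 calls and leaving out replicate 4 lost 8. The paired fit lost 3 of 51 calls. At 13.67 to 16.68 M counts per dorsal prothorax library, depth limits most the members near 5 CPM and the bounds set against tissues with no counts.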
